A study of Rattus norvegicus with 21 samples.

Results

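MHC class II antigen presentation was followed here through 7 genes. RT1-Da encodes the alpha chain of RT1-D, RT1-Ba and RT1-Bb the alpha and beta chains of RT1-B, RT1-DMa and RT1-DMb the 2 chains of the peptide editor DM, Cd74 the invariant chain and Ciita the class II transactivator. They were found by symbol among probe sets annotated to a single gene. All 7 were annotated, on 12 of the 31099 probe sets of the array, and each gene was represented by its probe set with the highest mean over the 21 arrays, which makes them 7 of 14218 genes measured.

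The series profiled a rat model of bile duct cancer arising within the liver (intrahepatic cholangiocarcinoma) with Affymetrix arrays. BDEneu cells, rat cholangiocytes that carry an activated neu (Erbb2) oncogene, were inoculated into male young adult Fischer 344 rats, so that all tumours derive from 1 cell line in rats of 1 inbred strain. Tumour was taken from 3 rats at each of days 10, 15 and 25, and the right liver lobe, labelled normal, from the same 9 rats. The 3 rats of day 25 also gave 1 peritoneal metastasis each, so the 7 tissue and day groups hold 3 arrays each, from different rats. For the day 25 livers the labels conflict, since their titles say day 25 and their descriptions day 55, and the titles were followed. All livers came from rats that bore a tumour, so no group shows the level in an animal without one.

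Class II molecules are pairs of an alpha and a beta chain that show peptides from taken-up proteins to CD4 T cells. The invariant chain fills the groove of new molecules and guides them to endosomes, where proteases cut it down and DM exchanges its last fragment for a peptide. In most tissues dendritic cells, macrophages and B cells carry class II, while epithelial cells make it mainly after interferon gamma induces Ciita, a co-activator that does not bind DNA itself and docks on the factors RFX, CREB and NF-Y bound to the X and Y boxes of class II promoters.

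The 5 RT1 members lie close together on rat chromosome 20, and a table of RefSeq promoters on assembly GRCr8, with windows from 250 bases before to 50 after each start, held 5 of the 7 members. The stretch with an X-like core and a Y core is printed for the 4 of them that held both at the usual spacing, because class II regulators are known to bind such boxes. Each is given 5′ to 3′ on the gene's strand, with GNNACNG and ATTGG in capitals:
RT1-Da, chr20:4515317-4515382, plus strand: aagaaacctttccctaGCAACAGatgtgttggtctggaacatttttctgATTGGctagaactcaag
RT1-Ba, chr20:4576965-4577030, plus strand: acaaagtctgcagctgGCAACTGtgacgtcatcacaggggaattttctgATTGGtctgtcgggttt
RT1-Bb, chr20:4604163-4604227, minus strand: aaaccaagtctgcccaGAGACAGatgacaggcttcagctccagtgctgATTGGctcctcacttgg
RT1-DMa, chr20:4712383-4712448, minus strand: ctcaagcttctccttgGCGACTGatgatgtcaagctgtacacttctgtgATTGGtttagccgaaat
RT1-Db1, a beta chain of RT1-D that is no member but is described below, chr20:4560226-4560290, minus strand: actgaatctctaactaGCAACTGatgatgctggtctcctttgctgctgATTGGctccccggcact
In these 5 stretches ATTGG started 32 or 33 bases after the first base of GNNACNG. It started 43 (RT1-Ba), 49 (RT1-Da), 61 (RT1-Bb), 64 (RT1-DMa) and 80 (RT1-Db1) bases before the start used in the promoter table, which for RT1-Da lies inside the gene model of the gene table.

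Searched on both strands, ATTGG alone was found in 5 of 5 member promoters and in 37.5% of all 33469 promoters of the same length. The X core AGNNACNGA, whose letters include GNNACNG, was found in 3 of 5 and in 18.1% of all. In RT1-Da and RT1-Bb it lay at the printed site, in RT1-Ba elsewhere in the window. The pair was GNNACNG with ATTGG starting 30 to 34 bases after its first base. It was found in 4 of 5 member promoters (that of Cd74 lacked these letters at this spacing) and in 0.932% of all promoters. The pair was defined after the sequences had been seen. It was also found in 4 of 5 promoters of other class II chains, RT1-Db1, RT1-Db2, RT1-DOb and RT1-Ha. A match of letters describes the sequence and shows no binding.

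Epithelial and liver markers placed the arrays with their labels. The mean log2 level of 6 bile duct genes lay between 11.17 and 11.90 in the 12 tumour and metastasis arrays and between 5.74 and 7.37 in the 9 livers. The mean of 13 hepatocyte genes lay between 12.43 and 13.06 in livers, 7.78 and 11.88 in tumours and 5.75 and 7.40 in metastases, so tumour pieces also held liver RNA. Transcripts of the exocrine pancreas were high in 3 arrays, with means over 8 acinar genes of 11.21 (metastasis replicate 2), 9.09 (day 15 tumour replicate 2) and 8.88 (day 25 tumour replicate 3), against 6.70 or less in all others.

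Tumours carried more class II RNA than the liver of the same rats. Averaged over the 3 days, 7 of 7 genes were higher in tumour (limma, Benjamini-Hochberg adjusted p under 0.05 over all 14218 genes), by 1.50 (Ciita) to 2.48 (RT1-Bb) on the log2 scale, which is 2.83-fold to 5.57-fold. Tumour and liver differed widely in general: 74.6% of all genes were called in this comparison, and 36.8% of all genes were called higher in tumour, and the median difference of all genes was -0.03. A count of 7 of 7 is thus read against a high background, and the values below carry more than the count. All tumours of a day lay above all its livers for 36.8% (day 10), 32.4% (day 15) and 29.1% (day 25) of all genes. These are pieces of whole tissue, in which fewer cells of a type and less RNA per cell cannot be told apart.

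RT1-Da, the alpha chain of RT1-D, had log2 levels of 13.25, 13.56 and 13.37 in the 3 tumours of day 10, 13.64, 13.24 and 13.13 at day 15, and 12.37, 12.54 and 13.10 at day 25. In the livers it stood at 10.21, 10.45 and 10.32 at day 10, 11.16, 10.66 and 11.53 at day 15, and 10.75, 10.83 and 10.15 at day 25. Every tumour lay above every liver, the lowest tumours being those of rats 7 and 8 at day 25 and the highest 2 livers those of rats 4 and 6 at day 15. RT1-Da was higher in tumour by 3.07 at day 10 (SE 0.28, adjusted p = 1.74e-07), 2.22 at day 15 and 2.10 at day 25 (SE 0.28, adjusted p = 1.36e-05).

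RT1-Bb, the beta chain of RT1-B, followed the same course. Its tumour levels were 12.83, 13.17 and 12.86 at day 10, 13.11, 12.67 and 12.60 at day 15, and 11.69, 11.97 and 12.50 at day 25. Its liver levels were 9.63, 9.91 and 9.79 at day 10, 10.74, 10.25 and 10.97 at day 15, and 9.95, 10.22 and 9.62 at day 25. Tumours and livers did not overlap, and the difference was 3.17 at day 10 (SE 0.26, adjusted p = 6.96e-08), 2.14 at day 15 and 2.12 at day 25 (adjusted p = 7.41e-06). The other probe set of RT1-Bb sat at group means of 4.23 to 4.49, under every array median, and showed no tumour-liver difference (-0.02). With both averaged, RT1-Bb was higher in tumour by 1.23 and remained called, but this average includes the probe set used and is no separate evidence.

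RT1-Ba, the alpha chain, was measured by 4 probe sets that disagreed. The probe set used gave tumour levels of 12.28, 12.49 and 12.36 at day 10, 12.71, 12.18 and 11.99 at day 15, and 11.10, 11.34 and 12.03 at day 25. In livers it gave 9.48, 9.82 and 9.64 at day 10, 10.31, 9.98 and 10.77 at day 15, and 9.72, 9.87 and 9.32 at day 25. On this probe set tumours and livers did not overlap, with a difference of 2.73 at day 10 (SE 0.32, adjusted p = 2.61e-06), 1.94 at day 15 and 1.85 at day 25 (adjusted p = 0.000156). The other 3 probe sets of RT1-Ba differed between tumour and liver by -0.28, -0.14 and 0.14, and their correlations with the one used over 21 arrays were -0.46, -0.27 and 0.63. With all 4 averaged, the difference shrank to 0.47 over all days (adjusted p = 1.49e-05) and to 0.31 at day 25 (adjusted p = 0.0445). The RT1-Ba difference therefore rests on 1 probe set. Its call was kept in both forms, but the average includes that probe set and is no separate evidence.

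Cd74, the invariant chain that escorts class II molecules to endosomes, was likewise higher in tumour at each day. Its tumour levels were 13.21, 13.37 and 13.29 at day 10, 13.52, 13.12 and 13.01 at day 15, and 12.18, 12.49 and 12.99 at day 25. Its liver levels were 10.52, 10.79 and 10.66 at day 10, 11.52, 10.94 and 11.81 at day 15, and 11.07, 10.94 and 10.56 at day 25. The groups did not overlap, and Cd74 was higher in tumour by 2.64 at day 10 (SE 0.26, adjusted p = 5.6e-07), 1.79 at day 15 and 1.70 at day 25 (adjusted p = 6.59e-05).

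The DM genes, whose protein swaps the last piece of invariant chain for a peptide, were called at days 10 and 15 but not at day 25. RT1-DMa had tumour levels of 10.12, 10.29 and 10.24 at day 10, 10.29, 9.86 and 9.22 at day 15, and 9.03, 9.08 and 9.62 at day 25. Its liver levels were 7.19, 7.38 and 7.22 at day 10, 7.79, 7.32 and 8.27 at day 15, and 9.41, 8.36 and 7.66 at day 25. The day 25 liver of rat 7, at 9.41, lay above 2 of the 3 day 25 tumours, and RT1-DMa was the only member whose tumour and liver arrays overlapped. Its difference was 2.96 at day 10 (SE 0.37, adjusted p = 5.69e-06), 1.99 at day 15 (adjusted p = 0.000293) and 0.77 at day 25, where it was not called (95% interval -0.01 to 1.55, adjusted p = 0.0943).

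RT1-DMb had tumour levels of 11.35, 11.50 and 11.43 at day 10, 11.49, 11.27 and 10.54 at day 15, and 9.96, 10.23 and 10.78 at day 25. Its liver levels were 8.94, 9.07 and 9.20 at day 10, 9.42, 9.27 and 9.72 at day 15, and 9.95, 9.91 and 9.42 at day 25. Tumours stayed above livers, by as little as 0.01 within rat 7. The difference of RT1-DMb was 2.36 at day 10 (SE 0.29, adjusted p = 5.35e-06), 1.63 at day 15 and 0.56 at day 25, which was not called (95% interval -0.06 to 1.18, adjusted p = 0.12). Leaving out arrays moved the day 25 differences of both DM genes in either direction. Without the 3 arrays of rat 7, a setting added after seeing the data, they were 1.34 for RT1-DMa (adjusted p = 0.0042) and 0.84 for RT1-DMb (adjusted p = 0.0192). Without the liver of rat 7 alone RT1-DMa stood at 1.23 (adjusted p = 0.00593). Other single arrays left out lowered RT1-DMa to as little as 0.36 and RT1-DMb to 0.34, with adjusted p up to 0.444 and 0.4.

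Ciita, the co-activator that switches on class II genes, was also higher in tumour at each day. Its tumour levels were 7.80, 8.19 and 8.12 at day 10, 8.12, 7.68 and 7.57 at day 15, and 6.31, 6.69 and 7.54 at day 25. Its liver levels were 6.25, 6.20 and 5.98 at day 10, 6.12, 6.11 and 6.28 at day 15, and 5.65, 6.09 and 5.82 at day 25, close to the array medians of 5.98 to 6.06; without detection calls, whether it was above background in liver was not measured. Tumours and livers did not overlap, though the day 25 tumour of rat 7 (6.31) was only just above the highest liver (6.28). Ciita was higher in tumour by 1.89 at day 10 (SE 0.31, adjusted p = 8.36e-05), 1.62 at day 15 and 0.99 at day 25 (adjusted p = 0.0136). The day 25 call of Ciita was lost without tumour replicate 3, one of the arrays with pancreatic transcripts (0.65, adjusted p = 0.0863). Its second probe set gave the same direction (0.76 over all days, r of 0.95 with the first).

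**Figure D1:**
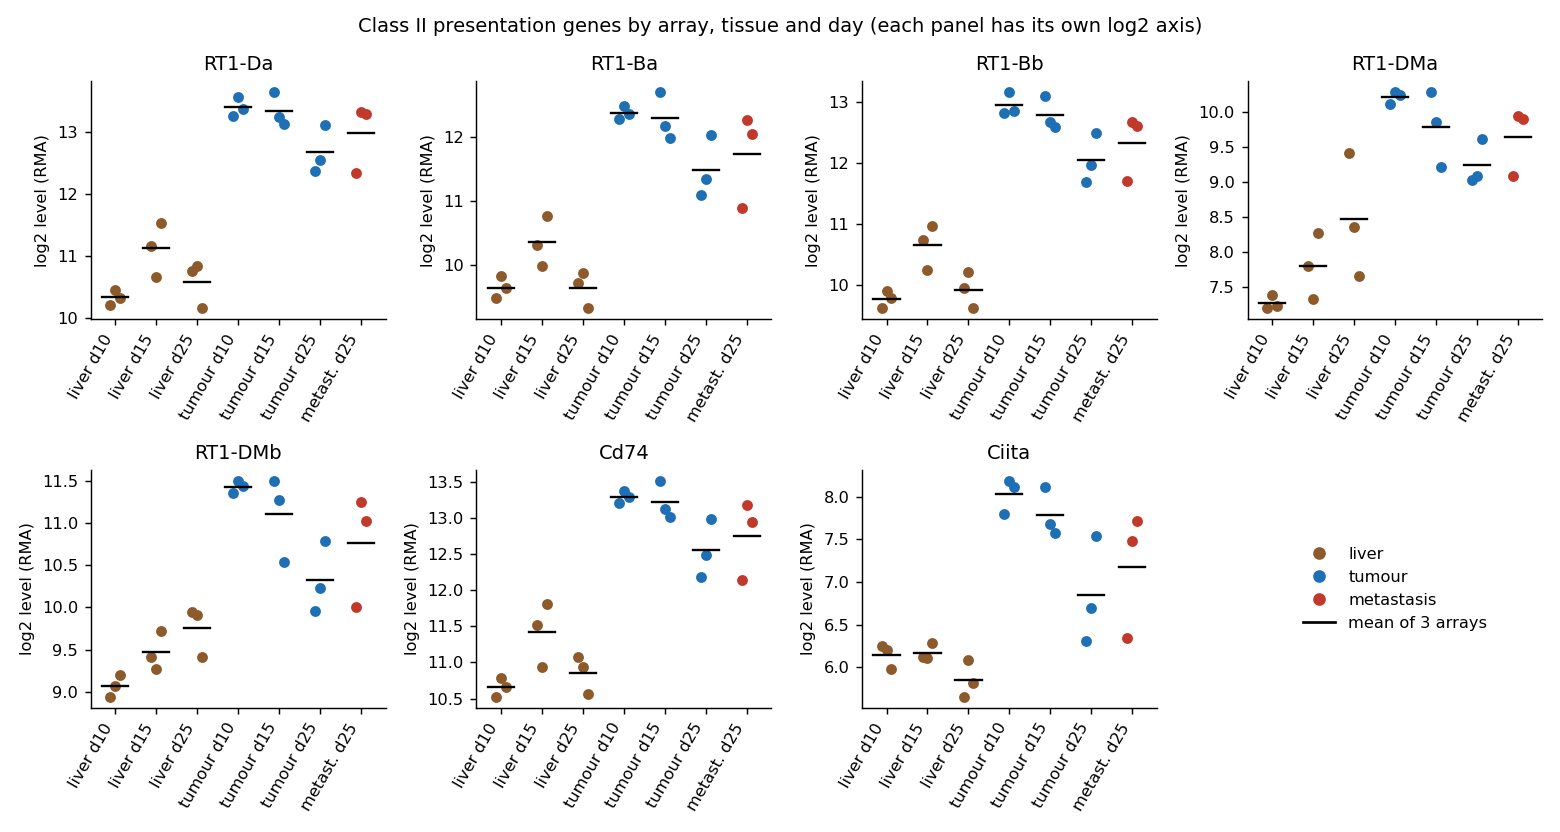
Log2 level (vertical axis, RMA scale, own range in each panel) of the 7 class II genes in each of the 21 arrays, by tissue and day; points are arrays and bars the mean of 3 arrays. Tumours and metastases lie above the livers in each panel except RT1-DMa, where the day 25 liver of rat 7 (9.41) reaches the range of the tumours.

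By day, the counts of members called higher in tumour were 7 of 7 at day 10, 7 of 7 at day 15 and 5 of 7 at day 25, against a background of 58.4%, 51.8% and 50.1% of all genes called in either direction. The medians of the 7 differences were 2.73 at day 10 and 1.70 at day 25, while the medians of all genes were -0.03 and -0.01. Within rats, the tumour of 9 of 9 rats exceeded its own liver for 6 members, and of 8 of 9 rats for RT1-DMa, the exception being rat 7 at -0.37. The share of all genes with this order in 9 of 9 rats was not computed. The 3 rats of day 10 were close to each other, with RT1-Bb differences of 3.06 to 3.26 and RT1-DMa differences of 2.92 to 3.02. The rats of day 25 were spread, with RT1-Bb at 1.74, 1.75 and 2.88 and RT1-DMa at -0.37, 0.72 and 1.96 in rats 7, 8 and 9. At day 15 rat 6 was the lowest of its group for all 7 genes, at 1.63 for RT1-Bb and 0.95 for RT1-DMa.

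**Figure D2:**
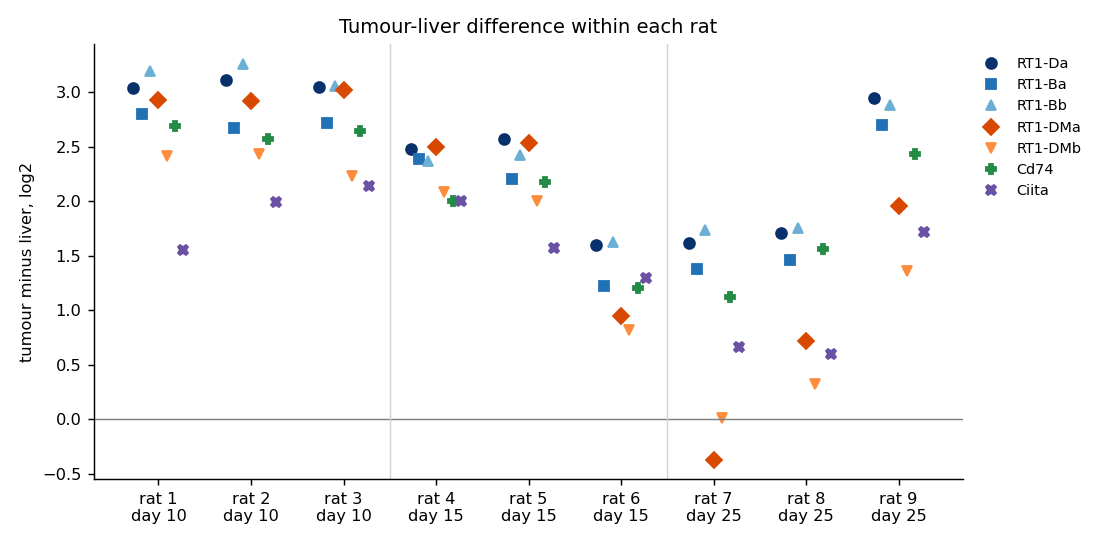
Tumour minus liver of the same rat, in log2 units (vertical axis), for the 7 class II genes in rats 1 to 9, ordered by day of sampling. The differences sit close together in the rats of day 10, and RT1-DMa reaches -0.37 in rat 7 and 1.96 in rat 9.

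Peritoneal metastases carried class II RNA at levels near those of the primary tumours of the same rats. Against the day 25 liver, which also served as the control of the day 25 tumours, 7 of 7 members were higher in metastases (57% of all genes called in either direction, 33.4% higher). RT1-Da stood at 12.33, 13.31 and 13.29 in the metastases of rats 7, 8 and 9, RT1-Bb at 11.71, 12.67 and 12.61, and Cd74 at 12.14, 13.18 and 12.94. RT1-DMa was at 9.09, 9.94 and 9.90, RT1-DMb at 10.01, 11.25 and 11.02, RT1-Ba at 10.89, 12.27 and 12.05, and Ciita at 6.34, 7.48 and 7.72. The metastasis of rat 7 was the lowest of the 3 for all 7 genes, as was its primary tumour.

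The differences between metastasis and liver were 2.40 for RT1-Da (SE 0.28, adjusted p = 2e-06), 2.40 for RT1-Bb, 2.10 for RT1-Ba and 1.90 for Cd74. They were smaller for Ciita (1.33, adjusted p = 0.00159), RT1-DMa (1.17, adjusted p = 0.0125) and RT1-DMb (1.00, adjusted p = 0.00783). The RT1-DMa value was 1.64 without the day 25 liver of rat 7 and 0.76 without that of rat 9, when it was no longer called (adjusted p = 0.0872). Without all 3 arrays of rat 7 it was 1.91. With both the tumour and the metastasis arrays that held pancreatic transcripts left out it was 1.02 and not called (adjusted p = 0.0591).

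**Figure D3:**
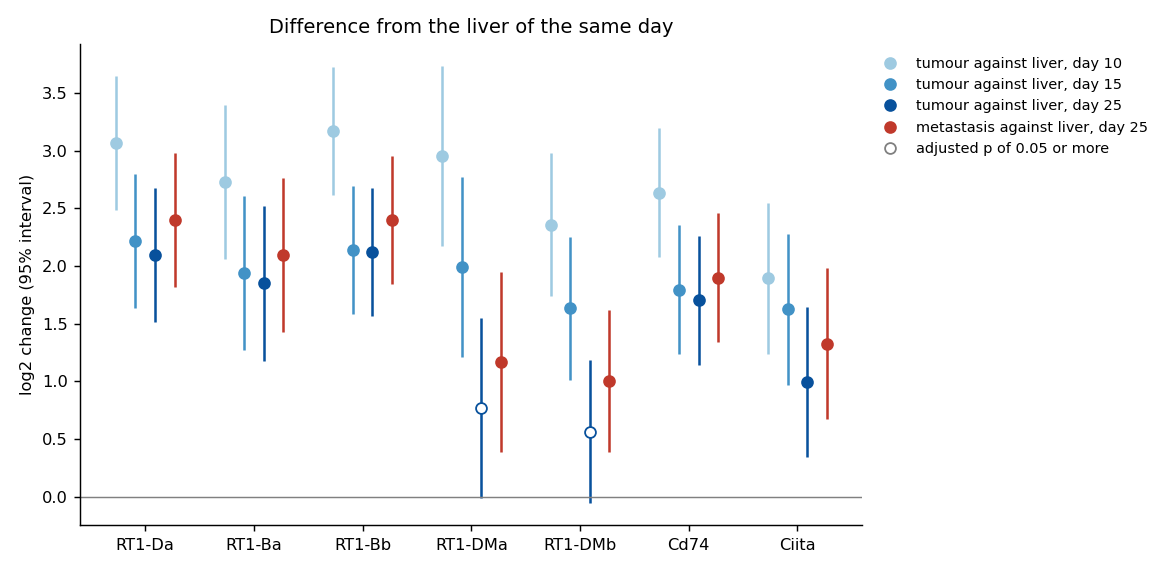
Log2 difference (vertical axis) of tumour or metastasis from the liver of the same day for each class II gene, with 95% intervals; open symbols mark an adjusted p of 0.05 or more. At day 25 the intervals of RT1-DMa and RT1-DMb in tumour include 0, while those of the other 5 genes do not.

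Set directly against the day 25 tumours, 0 of 7 members were called in metastases by limma, and 0 of 7 had an unadjusted p under 0.05; 0.338% of all genes were called, and 6.07% had such an unadjusted p. The mean differences ran from 0.20 for Cd74 (95% interval -0.36 to 0.75) to 0.44 for RT1-DMb (95% interval -0.18 to 1.06), with adjusted p from 0.84 to 0.896. They lay mostly in rat 8, whose metastasis held pancreatic transcripts and stood 0.68 to 1.02 above its tumour, while in rats 7 and 9 the differences were -0.21 to 0.29. Without that metastasis RT1-Ba and Cd74 were both at -0.02. The intervals of the 7 genes reach at most 1.18, for RT1-DMa, so larger rises lie outside them. Hepatocyte RNA differed between these tissues, with means of 7.78 to 10.59 in the day 25 tumours and 5.75 to 7.40 in metastases; its part in the difference was not tested.

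Group means of all 7 genes had the same order among the lesions: day 10 tumour, day 15 tumour, metastasis, day 25 tumour. Neighbours in this order overlapped for every gene. Between day 10 and day 15, 0 of 7 members were called by limma and 0 of 7 had an unadjusted p under 0.05 (0% of all genes called, 2.46% at such an unadjusted p), with differences of -0.06 (RT1-Da) to -0.43 (RT1-DMa). Between day 15 and day 25, 0 of 7 were called (0% of all genes), 6 of 7 had an unadjusted p under 0.05 (8.45% of all genes), and differences ran from -0.55 (RT1-DMa) to -0.95 (Ciita).

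Between day 10 and day 25 the 7 tumour differences were all below 0 and none was called. They were -0.72 for RT1-Da, -0.74 for Cd74, -0.89 for RT1-Ba, -0.90 for RT1-Bb, -0.97 for RT1-DMa, -1.11 for RT1-DMb and -1.19 for Ciita, with adjusted p from 0.145 to 0.215 (limma) and an unadjusted p under 0.05 for 7 of 7 (17.2% of all genes). The 3 arrays of day 25 lay below the 3 of day 10 for each gene, as they did for 15% of all genes, in a comparison where 0.0563% of all genes were called. Without the 3 arrays that held pancreatic transcripts, 5 of 7 members were called lower at day 25, among them Ciita (-1.54, adjusted p = 0.0174), RT1-DMb (-1.33, adjusted p = 0.0234) and RT1-Bb (-1.12, adjusted p = 0.0309), and 8.13% of all genes were called. Of these 3 arrays only day 25 tumour replicate 3 is in this comparison, and it was the highest day 25 tumour for all 7 genes. Without this replicate alone the differences were the same, and the only member called was Ciita (-1.54, adjusted p = 0.0354). The further calls came with leaving out 2 arrays of other groups, which enter only the shared estimate of the spread.

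Between liver days the only member called was RT1-DMa. From day 10 to day 15 the differences were 0.79 for RT1-Da, 0.70 for RT1-Ba, 0.87 for RT1-Bb and 0.77 for Cd74, against 0.53 for RT1-DMa, 0.40 for RT1-DMb and 0.02 for Ciita. None was called by limma, 4 of 7 had an unadjusted p under 0.05 (10.1% of all genes), and 0.0281% of all genes were called. For RT1-Da, RT1-Ba, RT1-Bb, RT1-DMb and Cd74 the 3 livers of day 15 lay above the 3 of day 10, as for 11% of all genes. From day 15 to day 25 the classical chains and Cd74 had differences of -0.54 to -0.72 and RT1-DMa one of 0.68; 0 of 7 were called, 3 of 7 had an unadjusted p under 0.05 (15.3% of all genes), and 2.2% of all genes were called.

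From day 10 to day 25 RT1-DMa rose in the liver by 1.21 (SE 0.37, adjusted p = 0.0496), the only member called where 9.1% of all genes were. RT1-DMb had a difference of 0.69 (adjusted p = 0.154), while RT1-Da (0.25), RT1-Ba (-0.01), RT1-Bb (0.15), Cd74 (0.20) and Ciita (-0.29) had intervals that include 0. The RT1-DMa call was at the edge of the threshold: it was lost with the rat as a random block (adjusted p = 0.0627), and without any of 5 of the 6 livers in turn. Without the liver of rat 7 its difference was 0.75.

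From day 10 to day 25 the gap between tumour and liver narrowed in the means of all 7 genes: its change was below 0 for each and was called for 2 of 7, against 1.46% of all genes. It was -2.19 for RT1-DMa (SE 0.52, adjusted p = 0.0473) and -1.79 for RT1-DMb (SE 0.41, adjusted p = 0.044). It was -0.97 for RT1-Da, -0.88 for RT1-Ba, -1.05 for RT1-Bb, -0.93 for Cd74 and -0.90 for Ciita, with adjusted p from 0.158 to 0.319. For DM both sides contributed, a lower tumour mean and a higher liver mean at day 25, whereas for the other 5 genes the liver means of the 2 days lay within 0.29 of each other. Both calls were at the edge: either was lost when any of 10 of the 12 arrays was left out. Whether DM differed from the other members was not tested.

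Across the 12 tumour and metastasis arrays the members moved together, with Pearson correlations from 0.90 to 1.0 (median 0.97 of 21 pairs). Across the 9 livers they fell into blocks: RT1-Da, RT1-Ba, RT1-Bb and Cd74 had mutual correlations of 0.95 to 0.98 and RT1-DMa and RT1-DMb of 0.91, but DM with those 4 genes only 0.23 to 0.57. Ciita in liver had correlations of -0.55 with RT1-DMa and -0.46 with RT1-DMb, at levels close to the array median. These correlations describe arrays that share tissue and day, and carry no test.

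The genes most like the members were sought by correlation with the mean of the 7 scaled genes. Over the 12 tumour and metastasis arrays they were RT1-Db1 (0.99), Ifi30 (0.989), Tifab (0.988), Ctsz (0.987), Leprot (0.986), Irf8 (0.986), Dpysl2 (0.984), Copb2 (0.984), Pdzd11 (0.983) and Fli1 (0.983). RT1-Db1 is a class II beta chain, Ifi30 the thiol reductase that opens disulfide bonds of antigens in endosomes, Ctsz a lysosomal protease and Irf8 a transcription factor of dendritic cells and macrophages. Over all 21 arrays, where the tumour-liver difference sets much of the value, they were RT1-Db1 (0.994), Rgs10 (0.986), Clec4a3 (0.985), Ppt1 (0.985), Fndc1 (0.984), Fcrl2 (0.982), Limd2 (0.981), Rnaset2 (0.98), Lims1 (0.978) and Unc93b1 (0.976).

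RT1-Db1, the beta chain of RT1-D and the only one of 6 other class II genes of the list that was measured, was higher in tumour by 2.96 at day 10 (SE 0.30, adjusted p = 6.9e-07), 2.36 at day 15 and 1.93 at day 25, and by 2.26 in metastases. In the liver it differed by 0.04 between days 10 and 25.

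Of the 10 genes of the complex on class II promoters, 4 were higher and 2 lower in tumour at day 10, and 4 higher and 1 lower at day 25, shares near the 58.4% and 50.1% of all genes called. The genes that rose were Rfx5, the DNA-binding subunit of RFX (1.01 at day 10, 1.13 at day 25), Nfya of NF-Y (1.09 and 0.94), Creb1 (0.65 and 0.64) and the acetyltransferase Ep300 (0.74 and 0.50). Kat2b, another acetyltransferase, fell by 0.81 and 0.60, and Nfyb of NF-Y fell by 0.61 at day 10. The other RFX subunits, Rfxank (-0.04 and -0.34) and Rfxap (0.10 and 0.23), were not called at these days. The median of the 10 was 0.13 at day 10. In the liver 1 of the 10, Nfyb, was called between day 10 and day 25 (-0.58), near the 9.1% of all genes called there (3.77% lower).

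Of 9 measured genes between interferon gamma and Ciita, 4 were higher and 1 lower in tumour at day 10, and 2 higher and 2 lower at day 25. For all genes, 30.4% were called higher and 28% lower at day 10, and 27.7% and 22.4% at day 25. Jak2, a kinase of the interferon gamma receptor, rose by 2.07 and 1.20, and Ifngr1, the ligand-binding chain, by 1.62 and 1.08. At day 10 Ifngr2, the other receptor chain, rose by 1.03 (adjusted p = 0.0065) and Irf8 by 1.71 (adjusted p = 0.000433); at day 25 they stood at -0.20 and 0.30, not called. Ifng itself, the 1 called lower at day 10 (-0.26, adjusted p = 0.0417), had means under the array median in all 7 groups, so whether it was above background was not measured, and Irf1, a target and effector of the pathway, was not called (0.25 and -0.21). The median of the list was 0.25 at day 10 and -0.16 at day 25.

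Endosomal proteases and their partners, which cut antigens and the invariant chain, were higher in 8 of 11 at day 10 (30.4% of all genes). At day 25, 3 of 11 were higher (27.7% of all genes) and 2 were lower (22.4%). At day 10 Cst7, an inhibitor of lysosomal proteases, rose by 2.20, Lgmn, which encodes an asparagine-specific protease, by 2.00, Ctsz by 1.95, Ifi30 by 1.81 and Ctss, the main protease of the invariant chain, by 0.95. At day 25 Ctsd (0.87), Ctsb (0.40) and Cst7 (1.08) were called higher and Ctsl (-1.19) and Ctsf (-0.49) lower, while Ctss stood at -0.12 and Lgmn at 0.40. In the liver 3 of 11 rose from day 10 to day 25 (5.33% of all genes), Lgmn by 1.39, Ctss by 0.89 and Ctsb by 0.48. The tumour-liver difference shrank for Lgmn (-1.60) and Ifi30 (-1.46). Cst7 lay under the array median in all livers, so whether it was above background there was not measured.

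Regulators of surface class II were mostly higher in tumour, with 3 of 5 called higher at day 10 and 3 higher and 1 lower at day 25. Over all genes 30.4% were higher at day 10, and 27.7% were higher and 22.4% lower at day 25. Marchf1, a ubiquitin ligase that removes class II from the surface, rose by 2.58 at day 10 and 1.04 at day 25. It lay under the array median in the livers of days 10 and 15. Cd83, which opposes it, rose by 1.85 and 1.86. Marchf8, the related ligase of other cell types, was at -0.23 and, called, -0.84. Among 5 co-stimulation and adhesion genes Cd86 (0.94) and Cd40 (0.72) rose at day 10. Cd40 lay under the array median in all livers. Whether Marchf1 and Cd40 were above background in those livers was not measured. At day 25, 0 of 5 were called (50.1% of all genes), with Cd86 at 0.17 and Cd40 at 0.16.

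Genes of the T cells that read class II gave 4 of 7 higher and 1 lower at day 10 (30.4% and 28% of all genes). At day 25, 0 were higher and 2 lower (27.7% and 22.4% of all genes). Cd3g (1.70), Icos (0.95), Cd3d (0.89) and Cd3e (0.89) rose at day 10. The Cd3 genes lay under the array median in all livers, and Cd3d also in the tumours of day 25 and in metastases. Whether they were above background there was not measured. Cd4, the co-receptor for class II, which rat macrophages also carry, was at 0.22 at day 10 and fell by 0.77 at day 25. Ctla4, at -0.45 and -0.49, had means under the array median in all 7 groups as well.

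Class I presentation was measured with 20 genes. Over all days 2 of them were higher and 12 lower in tumour (36.8% and 37.8% of all genes). At day 10, 3 genes were higher and 5 lower in tumour (30.4% and 28% of all genes), with a median of -0.17. At day 25, 1 was higher and 7 lower (27.7% and 22.4% of all genes), with a median of -0.33. Psmb8, an immunoproteasome subunit, fell by 1.19 and 1.20 and the class I gene RT1-S3 by 1.72 and 1.66. B2m, the light chain of class I, was at -0.09 and, called, -0.41, and Tap1, a peptide transporter subunit, was at -0.17 and -0.23. Nlrc5, the class I transactivator, fell by 0.38 at day 10. It lay under the array median in all arrays, so whether it was above background was not measured. RT1-N3 rose by 0.66 and 0.79, from levels under the array median in all livers. Class I genes of the RT1 family are near-identical in sequence, so their probe sets may read more than 1 of them. A test between the 2 sets of genes was not made.

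Markers of leukocytes, many of which carry class II, were also higher in tumour. Of 7 general leukocyte genes 7 were higher in tumour at day 10 (median 2.23) and at day 25 (median 0.94), and 7 in metastases (median 1.11). Shares of all genes called higher in these comparisons were 30.4%, 27.7% and 33.4%. Their mean log2 level was 9.99 to 10.21 in the tumours of day 10, 9.54 to 10.22 in those of day 15, 9.25 to 9.76 in those of day 25 and 9.29 to 9.96 in metastases, against 7.52 to 7.61, 8.00 to 8.20 and 8.26 to 8.44 in livers at days 10, 15 and 25. The lowest day 25 tumour (9.25) and the lowest metastasis (9.29) were those of rat 7, which were also lowest for the members. In livers the leukocyte mean was highest at day 25, when 3 of 7 were called higher than at day 10 (5.33% of all genes). The part of leukocyte content in the class II differences was not tested.

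Macrophage and monocyte markers were higher in 11 of 15 and lower in 1 at day 10. They were higher in 6 and lower in 1 at day 25, and higher in 8 and lower in 1 in metastases. Over all genes the shares were 30.4% and 28% at day 10, 27.7% and 22.4% at day 25, and 33.4% and 23.6% in metastases. The median of the 15 was 1.38 at day 10, 0.11 at day 25 and 0.47 in metastases. Lyz2 (3.17 at day 10), Tyrobp (2.29) and C1qa (1.56) rose, and Cd163 fell by 0.93. In the liver 8 of 15 rose from day 10 to day 25 (5.33% of all genes), among them Gpnmb (1.25), C1qb (1.01), C1qa (0.83) and Tyrobp (0.79). The mean level of the 15 went from 8.45 to 8.64 at day 10 to 8.86 to 9.35 at day 25. It was highest in rat 7, whose liver was also highest for RT1-DMa and whose tumour (9.28) and metastasis (9.26) lay below it. None of the 15 lay under the array median in all 3 arrays of a group. The Kupffer markers Clec4f and Cd5l, of resident liver macrophages, were lower in tumour, 2 of 2 at days 10 and 25 (28% and 22.4% of all genes). The part of macrophage content was not tested.

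Among 9 dendritic cell markers 5 were higher and 0 lower in tumour at day 10 (30.4% and 28% of all genes). At day 25 (27.7% and 22.4% of all genes) and in metastases (33.4% and 23.6%), 3 were higher and 1 lower. The median of the 9 was 1.02 at day 10, -0.05 at day 25 and 0.08 in metastases, and 5 were not called in either of the latter. Clec10a (3.89 at day 10, 3.10 at day 25), Itgax (2.67 and 2.00) and Fscn1 (2.26 and 1.45), genes that other cells also carry, rose at both days. Clec9a, a receptor of the dendritic cells that cross-present, rose by 1.50 at day 10 and fell within tumours by 1.52 from day 10 to day 25, as did the chemokine gene Ccl17 by 1.25. Batf3, Flt3 and Ccl22 had means under the array median in all tumour groups. Clec9a did so in the tumours of days 15 and 25, metastases and all livers, Itgae in the tumours of days 15 and 25, and Itgax in the livers of day 10. Whether these genes were above background there was not measured. The mean level of the 9 was 7.01 to 7.20 in the tumours of day 10, 6.31 to 6.68 in those of day 25 and 5.70 to 5.93 in livers. The part of dendritic cells was not tested.

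Of the B cell markers 2 of 7 were higher and 3 lower in tumour at day 10 (30.4% and 28% of all genes), with a median of -0.20. Blnk, which macrophages also express, rose by 3.17, while Ms4a1, which encodes CD20, fell by 0.45 and Cd79b was at -0.20. Cd79b, Ms4a1, Bank1, Cr2 and Fcer2 had means under the array median in all tumour and metastasis groups. Blnk lay under it in the livers of days 10 and 25. The mean of the 7 lay between 5.63 and 5.72 in day 10 tumours and 5.39 and 5.54 in livers. Of 12 T and NK cell markers 3 were higher and 2 lower at day 10, against the same shares of all genes. Cells of the cancer line that carry class II cannot be told apart from leukocytes in these pieces.

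**Figure D4:**
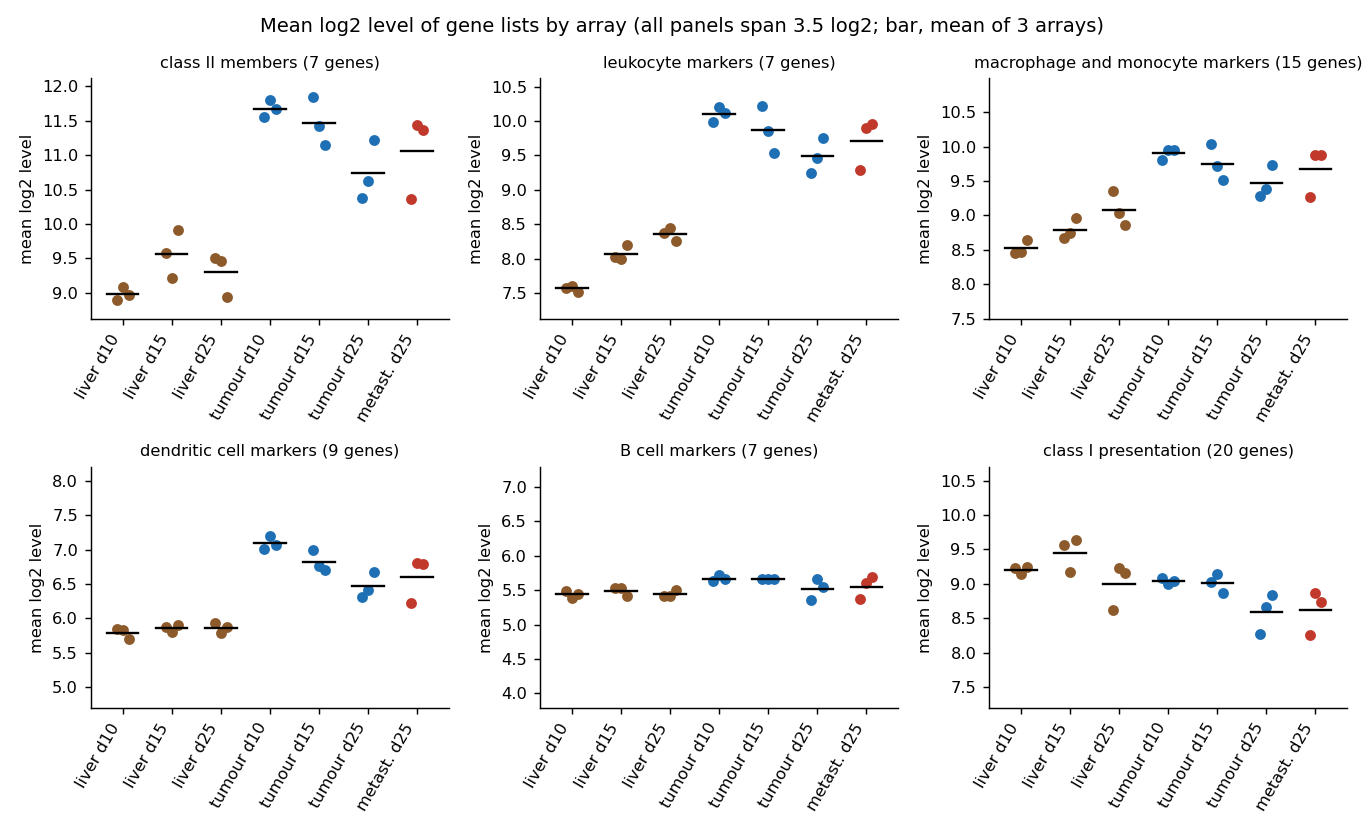
Mean log2 level (vertical axis, each panel spanning 3.5 log2 units) of the class II genes and of 5 gene lists in each array, by tissue and day; points are arrays and bars the mean of 3. Leukocyte and dendritic lists lie higher in every tumour than in every liver, the macrophage list overlaps at day 25 (9.35 in the liver and 9.28 in the tumour of rat 7), B cell markers stay between 5.36 and 5.72, and the class I list stays between 8.26 and 9.63.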

How the data were processed

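Per the submitters' processing notes, the authors made the deposited values with RMA, as log2 expression per probe set; the sources used here do not name the program. RMA aligns the distribution of all arrays, so a shift of most transcripts would be partly removed, and no detection calls came with the values, which ran from 3.16 to 14.62. Names came from the platform annotation (20832 probe sets with 1 symbol, 436 with several, 9831 unlisted), updated through the GRCr8 gene table, which held 20764 of the single-symbol identifiers. Probe sets with more than 1 symbol were not used. Coordinates are printed only for the promoter stretches, on GRCr8. None are given for probe sets, because the build behind the array annotation is not stated.

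All 21 arrays were fitted as 7 group means in R 4.3.3 with limma 3.58.1 (lmFit, eBayes), and p-values were adjusted over 14218 genes by Benjamini-Hochberg for each of 13 comparisons. The script was tested on simulated data. Intervals are 95% intervals of the fit. The number of arrays limits the precision; the median SD of a gene within a group was 0.11 to 0.177.

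The liver titles name the tumour and metastasis samples they pair with, and the rats were numbered from this pairing. Deviations of same-rat arrays from their group means had correlations of 0.04 to 0.58 over genes, and the rat as a random block had a consensus correlation of 0.136. The alternatives were 8 settings, each of 21 arrays left out in turn, and 2 added after seeing the data (without rat 7, and without the 3 arrays with pancreatic transcripts).

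The members and lists were chosen with earlier results of these data known. All members were named. Of the pathway lists any measured gene could be named, of the marker lists up to 4 genes with the highest mean, and in addition the genes most like the members; other marker genes (Clec9a, Ccl17, Gpnmb, C1qa, C1qb, Cd163, Blnk, Ms4a1, Cd79b those under the array median, and those whose tumour-liver difference changed with the day) were named after their values were seen. The labels give no scan date or batch.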

Additional observations from a re-analysis of the deposited data

Results flagged for a closer look

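The tumour-liver difference changed from day 10 to day 25, by limma's test of that change at an adjusted p under 0.05, for 2 members and for 17 genes of the other lists. In this test 1.46% of all genes were called. The members were RT1-DMa (-2.19) and RT1-DMb (-1.79). Among genes that act with class II they were Lgmn (-1.60), Ifi30 (-1.46) and Marchf1 (-1.54). Of the dendritic markers Clec9a (-1.46), Itgae (-1.14) and Ccl17 (-1.07) changed. Clec9a lay under the array median in the tumours and livers of day 25, Itgae in the tumours of day 25, and Marchf1 in the livers of day 10. Of the macrophage markers Cd68 (-1.10), Gpnmb (-1.42), Tyrobp (-1.08), C1qa (-1.45) and C1qb (-1.43) changed. The leukocyte genes were Ptprc (-1.38), Coro1a (-1.97), Laptm5 (-1.21), Cd53 (-1.58) and Arhgdib (-0.98), and the endothelial gene was Vwf (-1.06). Each value is the log2 difference at day 25 minus that at day 10, and each was below 0. Groups of 3 arrays were too small to look for single outlying arrays.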

How the results depend on the processing

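Members called in tumour against liver over all days (7), at day 10 (7) and at day 15 (7), and in metastases against liver (7), kept within 1.5 times their count under each of the 8 settings, and no value that was called changed direction under any setting. The call of RT1-DMa in liver day 25 against day 10 (1 gene) went to 0 with quantile normalization again, the mean over probe sets, a trend and robust prior, the replicate block with the rat as a random block, only the groups compared, without rat 7 and without the arrays with pancreatic transcripts; leaving out single arrays gave 0 to 1. The change of the tumour-liver difference (2 genes) went to 0 with quantile normalization again and to 1 with the mean over probe sets, a trend and robust prior, only the groups compared, or without rat 7; leaving out single arrays gave 0 to 2. For tumour day 25 against day 10 the count went from 0 to 5 without the arrays with pancreatic transcripts, only 1 of which is in this comparison. Leaving out single arrays gave 0 to 1. At day 25 the tumour-liver count was 4 to 6 and the metastasis-liver count 6 to 7 with single arrays left out. The cause was not tested. With only the groups compared, Ciita in tumour against liver at day 25 (adjusted p = 0.0605) and RT1-DMa (0.0948) and RT1-DMb (0.0616) in metastases were no longer called. The rat as a block changed no other call of a member by limma; with a random block 402 genes, not 208, were called in the change of the tumour-liver difference. Of 240 list counts recomputed, 76 moved over 1.5 times under some setting, most of them counts of 0 to 3, and class I genes lower at day 25 ranged from 3 to 12. Of the 17 list genes whose tumour-liver difference changed, only Lgmn, Coro1a and Cd53 kept their call under all settings and left-out arrays. With 3 arrays a group, differences between tumour days of up to -1.19 were not called, and without detection calls the level of Ciita in liver, near the array median, could not be set against background.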
